A study of Mus musculus with 30 samples.

Results

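Immunoglobulin probes were examined one by one on arrays of mammary carcinomas from mice that carry a Myc transgene. A probe was a member if it was annotated with a single gene symbol, if that symbol named the heavy chain locus, the kappa or lambda light chain locus or one of their segments (Igh, Igk, Igl, or a symbol opening with one of these and continuing with a variable, joining or constant region letter), and if it held a measured value on at least 20 of the 30 arrays. Ighmbp2, which carries the prefix but encodes a DNA-binding helicase, was left out. Of 202 immunoglobulin probes among the 22800 probes of the array, 125 were members and 77 were measured on too few arrays. The members carried 48 symbols; 53 probes belonged to the heavy chain and 72 to the kappa chain, and no lambda probe was a member. Members were chosen by their symbol and by the number of arrays with a measured value, not by the size of the ratios.

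The study hybridised 15 carcinoma RNA extracts, each on 2 arrays with the channels exchanged, against 1 reference RNA common to all arrays. All extracts share the Myc transgene per the labels, but the sources used here do not give the promoter that drives it, the strain and age of the mice, any treatment, the origin of the reference, or whether extracts came from separate animals. Extract codes carry a number and a letter: number 579 stands on 5 extracts and the other numbers on 10. Extracts 550-A and 561-B were described under tumour progression on both arrays, 12 extracts under the epithelial to mesenchymal change, and 595-A under one description on each array. With separate animals not stated, each p-value from extract means reflects only how far these extracts scatter, and part of that scatter may be technical. In the comparison between extracts the p-values are set against noise between arrays of an extract.

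Values are log2 ratios to the reference. Neither the dyes nor the numerator of the ratio are labelled, so a direction is given by side: the Myc side is the side on which the Myc probe lay (3.16 ± 0.11, SE, n = 15 extracts), and the opposite side is the other. Given carcinomas of Myc transgenic mice, a ratio on the Myc side likely means more RNA in the extract than in the reference, which rests on the design and is not proof. All 7 mammary epithelial markers passed on the Myc side, where 23.0% of all probes did. Among them were Epcam at 2.90 ± 0.11, Krt8 at 2.25 ± 0.15 and the kappa-casein gene Csn3 at 6.29 ± 0.42. The number of measured probes per array ran from 13434 to 21991. Extracts 546-A and 548-A had the fewest, and 93 and 80 of the 125 members were measured in them.

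An antibody is built from heavy and light chains, each with a variable region joined by recombination from germline segments and a constant region, and the heavy chain's constant region sets the class. B cells carry antibody on their surface and plasma cells secrete it, and in the mammary gland plasma cells supply the IgA that epithelium carries into milk. Variable segments of a family are close copies, so a variable segment probe may bind transcripts of related segments and its symbol is uncertain within the family. In RNA from whole tissue, fewer cells of a type and less RNA per cell cannot be told apart.

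Against the reference, 41 of the 125 members passed an adjusted p of 0.05 (limma with Benjamini-Hochberg adjustment over all 18923 probes measured on at least 20 arrays). They divided unequally: 31 members (24.8%) passed on the opposite side, where 13.6% of all probes did, and 10 (8%) on the Myc side, where 23.0% of all probes did. On either side together 32.8% of members and 36.6% of all probes passed. The median member lay at -0.11, against 0.10 for all probes. A minority of probes carried large ratios. Of the 125, 18 lay below -2 and 6 between -2 and -1, 101 lay within 1 of 0, and 0 lay above 1. Among the 18 below -2 were 11 kappa and 7 heavy chain probes under 9 symbols, and 17 of them lay on the opposite side in every extract measured. The exception was Ighv6-6 probe 8089, at 0.28 in extract 579-F.

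Farthest on the opposite side was the kappa variable segment Igkv4-57-1, probe 4241. Its extract values ran from -9.31 (548-A) through a median of -6.95 to -5.36 (579-F), with a mean of -7.08 ± 0.24 (SE, n = 15) that corresponds to a 135-fold difference (limma adjusted p = 5.35e-13). All 15 extracts lay well away from 0 on that side. Igkv6-14, another kappa variable segment, followed with probe 7889, from -7.89 (548-A) through a median of -6.87 to -2.92 (546-B), mean -6.73 ± 0.30 (n = 15; limma adjusted p = 1.94e-11). A single extract, 546-B, stood apart from the others there. The heavy chain variable segment Ighv1-84, probe 21116, ran from -9.22 (567-B) through -6.33 to -3.14 (561-B), mean -6.56 ± 0.38 (n = 14; limma adjusted p = 2.02e-09). A probe annotated to the heavy chain locus as a whole, Igh probe 22666, ran from -8.83 (546-A) through -6.58 to -3.53 (561-B), mean -6.50 ± 0.36 (n = 14; limma adjusted p = 1.07e-09). No extract mean reached 0 for either, but in 561-B the arrays disagreed: with the extract in channel 1 and in channel 2, Ighv1-84 lay at 0.85 and -7.12, and Igh probe 22666 at -6.30 and -0.77.

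Of the 5 Igh locus probes, 4 passed on the opposite side: besides probe 22666, probe 17116 averaged -5.68 ± 0.26, probe 21064 averaged -5.58 ± 0.31 and probe 12014 averaged -3.17 ± 0.34. Igh probe 2941 passed on the Myc side at 0.80 ± 0.29. Kappa variable probes made up the next group, with 11 of 45 probes of the Igkv4 family on the opposite side; after Igkv4-57-1 the farthest were Igkv4-70 probe 2689 at -6.17 ± 0.21, Igkv4-68 probe 7940 at -6.0004 ± 0.18 and Igkv4-72 probe 3166 at -5.79 ± 0.20. Outside that family, Igkv3-4 probe 18190 averaged -2.64 ± 0.14 and Igkv3-2 probe 10741 averaged -1.53 ± 0.31. Among other heavy chain segments, Ighv6-6 probe 8414 averaged -5.73 ± 0.27 and Ighv1-47 probe 2115 averaged -1.32 ± 0.18. RefSeq lists 12 members as variable segment pseudogenes, of which 1 passed on the opposite side, 2 on the Myc side and 9 on neither. The pseudogene on the opposite side was Igkv1-115 probe 13415 at -1.91 ± 0.19.

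Constant region probes, most of which read a heavy chain class, mostly did not pass, which does not show that their RNA was unchanged. Of 10 such probes, 1 passed: Ighm probe 4066, for the mu chain of IgM, at -1.63 ± 0.29 (n = 14; limma adjusted p = 0.000316). Its extracts ran from -3.66 (550-A) through -1.76 to 0.59 (546-A), and 12 of the 14 lay on the opposite side. The other 5 Ighm probes had means between -0.21 and 0.66 and did not pass. Igkc probe 19766, for the kappa constant region that every mouse kappa chain carries, averaged -0.05 ± 0.25 (n = 13; limma adjusted p = 0.899), with extracts from -1.86 through -0.24 to 1.43 on both sides. Ighg2c, an IgG class, averaged -0.61 ± 0.26 (limma adjusted p = 0.0836), and Ighg3, another, 0.38 ± 0.34 (limma adjusted p = 0.421). Igha probe 16241, for the alpha chain of IgA, had extracts from -2.32 (546-A) through 0.81 to 2.95 (540-B) and a mean of 0.56 ± 0.39 (n = 15; limma adjusted p = 0.302).

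The 10 members on the Myc side carried small ratios, from 0.37 to 0.91, and for 0 of them did every extract lie on that side. After subtraction of each array's median, 4 of these 10 still passed, and without extract 546-B 5 members passed on this side. Ighv6-6 probe 19366 ran from -0.52 (579-F) through 1.01 to 2.38 (579-B), mean 0.91 ± 0.20 (n = 15; limma adjusted p = 0.00191). Igkv2-105 probe 3451 ran from -0.49 (579-D) through 0.94 to 2.33 (595-A), mean 0.83 ± 0.20 (n = 14; limma adjusted p = 0.00399). Both had extracts on either side of 0, and by orientation the first lay at -0.10 with the extract in channel 1 and 2.10 in channel 2, the second at 1.32 and 0.44. Igh probe 2941 ran from -1.74 (550-A) through 0.59 to 2.39 (579-A), mean 0.80 ± 0.29 (n = 13; limma adjusted p = 0.0423). Ighv5-9 probe 22641 ran from -0.29 (579-A) through 0.73 to 1.93 (548-A), mean 0.76 ± 0.19 (n = 14; limma adjusted p = 0.00445). The other 6 on the Myc side were Ighv6-6 probe 19891 at 0.75 ± 0.23, Ighv5-9 probe 12515 at 0.70 ± 0.25, Igkv13-64 probe 14065 at 0.66 ± 0.24, Ighv5-9 probe 21514 at 0.59 ± 0.20, Igkv2-112 probe 2216 at 0.58 ± 0.20 and Igkv4-55 probe 15468 at 0.37 ± 0.14. The 84 members that did not pass had means from -0.86 to 0.97, with a median of -0.01. The highest mean of all members, 0.97 for the kappa pseudogene Igkv12-42, was among them.

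Of 13 symbols with several probes, 8 had means more than 2 apart and 5 had means within 2. Ighv6-6 had the most probes, 20, with means from -5.73 to 0.91; 5 passed on the opposite side, 2 on the Myc side and 13 on neither. Besides probes 8414 and 8089 (-2.91 ± 0.40), the Ighv6-6 probes on the opposite side were 1591 at -0.86 ± 0.29, 13565 at -0.81 ± 0.28 and 1166 at -0.52 ± 0.19. Igkv4-72 had 12 probes from -5.79 to 0.58, of which 9 did not pass and 3 passed on the opposite side. Igkv4-57-1 spanned the widest interval with 4 probes, from -7.08 to 0.40; besides probe 4241, probe 4839 passed at -1.53 ± 0.24. Igkv4-70 had 8 probes from -6.17 to 0.42, with probe 18889 at -5.06 ± 0.31 and probe 12690 at -3.64 ± 0.31 passing beside probe 2689. Igkv4-68 had 8 probes, the highest at 0.33, with probe 14139 at -4.96 ± 0.28 and probe 5007 at -1.88 ± 0.18 passing beside probe 7940. In Igkv4-72 the probes that passed beside 3166 were 13790 at -4.35 ± 0.27 and 11354 at -0.85 ± 0.11. Igkv6-14 had 3 probes from -6.73 to -0.33, of which probe 6966 passed at -3.37 ± 0.47. These symbols thus each held probes with large ratios beside probes close to 0. Ighv5-9 had 11 probes within 1 of 0, with 3 on each side and 5 on neither; those on the opposite side were probe 14715 at -0.96 ± 0.26, probe 3840 at -0.94 ± 0.22 and probe 90 at -0.68 ± 0.26. All 5 Ighv9-4 probes lay between -0.14 and 0.40 and 0 of them passed.

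The sign of many member ratios went with the orientation of the array. With the extract in channel 1 the median member lay at -0.79 (all probes -0.22), and with the extract in channel 2 at 0.51 (all probes 0.46). Means of the 2 orientations had opposite signs in 77 of 125 members. How often this happened over all probes was not counted, so it cannot be called particular to the members. All 24 members with a mean below -1 passed on the opposite side with both orientations averaged and in each orientation alone. They were picked by the mean of these same orientations, so their side follows in part from the choice. In all, 25 members passed overall and in each orientation alone on the same side, all 25 on the opposite side, while of 14839 single-symbol probes 18.2% did so on either side and 6.15% on the opposite side. The 6 opposite side members that did not meet it, 3 of Ighv5-9 and 3 of Ighv6-6, had means from -0.96 to -0.52. Igha is an example of an orientation gap, at -0.78 in channel 1 and 2.28 in channel 2. Igkv4-57-1 probe 4241 lay at -7.05 and -6.88 in the same orientations.

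Many deposited values match, to 3 decimals, the log2 ratio of some pair of whole numbers no larger than 20; such values cannot exceed 4.32 in size. Of the 18 probes below -2, 13 have means beyond that limit, where no such value can lie. The share had a median of 3.71% over the 18. Those with means inside the limit ran from 8.33% (Igkv4-70 probe 12690) to 30% (Ighv6-6 probe 8089). Some of their extract values still lay beyond the limit, such as -8.21 for Igkv6-14 probe 6966 in 540-B. How far ratio size sets these shares was not tested. The share had a median of 56% over the other 107 members, and of 25% over all probes on at least 20 arrays, large ratios included. Over the 10 constant region probes its median was 58.0%. Among members within 1 of 0 the share varied widely: Igkv4-72 probe 11354 at -0.85 ± 0.11 had a share of 6.67%, against 83.3% for Ighg2c and 90.5% for Ighm probe 4415. The paired arrays of an extract differed by a median of 0.94 in the 18 strong probes and 2.01 in the rest. Whether these shares bear on the ratios was not tested.

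Between extracts, 1 of 125 members passed (moderated F test with a dye term, limma variance moderation, adjusted over all probes), where 2.71% of all probes did; 11 members (8.8%) and 14.0% of all probes had an unadjusted p under 0.05. The member that passed was Igh probe 17116 (F = 7.20, adjusted p = 0.0147). Its extract values ran from -7.50 (540-B) through -5.48 to -4.52 (597-B). Its paired arrays differed by a median of 0.68. In 540-B the 2 arrays gave -7.14 and -7.87, and in 597-B they gave -4.75 and -4.30, so these extracts did not overlap. Extracts of number 579 lay at both ends, with 579-B at -7.28 and 579-F at -4.58. Extract 546-A rested on 1 array. Without the dye term the adjusted p was 0.0598, and leaving out each extract in turn gave 0.0126 to 0.0344.

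The genes that followed probe 17116 most closely over the 15 extracts were taken from 421 single-symbol probes that differed between extracts. Dusp1, a phosphatase that switches off MAP kinases, had a Pearson r of 0.66 and a Spearman rho of 0.73; Irf1, an interferon-responsive transcription factor, 0.65 and 0.70; and Sgcb, a sarcoglycan of muscle membranes, 0.62 and 0.60. Without the 2 extracts farthest from the median, r was 0.68, 0.69 and 0.64 in the same order. These were picked as the highest of that pool and are given with no p; the points share arrays and reference. Next to passing was Igkv4-72 probe 21091 (moderated F adjusted p = 0.0885), and Igha had an SD of 1.65 over extracts and a moderated F adjusted p of 0.179.

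The median of the 18 probes, whose side follows from how they were picked, varied over extracts from -6.63 in 548-A to -4.57 in 579-F, and was -4.72 in 561-B. The order of extracts depended on array medians. With these subtracted, the lowest was -6.51 in 567-B and the highest -4.58 in 546-A, while 548-A lay at -6.23 and 579-F at -4.72. From 13 to 18 of the 18 probes were measured per extract, with 13 in the thin extracts 546-A and 548-A.

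Number 579, the only number with more than 2 extracts, was set against the other numbers. In limma's test 0 members and 0.0% of all probes passed; 8 members (6.4%) and 3.8% of all probes had an unadjusted p under 0.05. Igkv4-57-1 probe 4241 averaged -6.28 in the 5 extracts of 579 and -7.48 in the 10 others, a difference of 1.20 ± 0.42 (SE), which did not pass. Igkv4-68 probe 7940 averaged -5.38 in 579 and -6.31 in the others, a difference of 0.94 ± 0.31, which did not pass either. Igkv2-112 probe 2216 averaged -0.06 in 579 and 0.93 in the others, a difference of -0.99 ± 0.34, and did not pass.

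Extracts described under tumour progression, 550-A and 561-B, were set against the 12 with the other description. In limma's test 0 of the 124 members tested and 0.0% of all probes passed; 10 members (8.06%) and 4.35% of all probes had an unadjusted p under 0.05. The kappa pseudogene Igkv1-108, probe 1866, averaged 3.15 in the progression extracts and 0.23 in the others, a difference of 2.92 ± 0.88 (limma adjusted p = 0.873). Both progression values of that probe rest on 1 array with the extract in channel 2, and over all extracts its mean was -2.30 in channel 1 and 2.30 in channel 2, so orientation and description cannot be told apart there. Ighm probe 4066 averaged -3.28 against -1.39, a difference of -1.90 ± 0.72, and Igh probe 2941 averaged -0.94 against 1.12, a difference of -2.05 ± 0.63. None of the 3 passed, and the progression means rest on 2 extracts. For Igh probe 2941 too, both progression values come from the channel 2 array alone, whereas Ighm probe 4066 was measured on both arrays of each progression extract, from -3.84 to -2.85.

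Genes that act with immunoglobulin in antibody-secreting cells were read on the same scale. Of 12 plasma cell genes tested, 6 passed on the opposite side, 1 on the Myc side and 5 on neither, with a median of -0.77. Jchain, whose product links IgA and IgM into polymers, had extracts from -7.42 to -4.67 and a mean of -6.11 ± 0.18. Mzb1, a chaperone of immunoglobulin assembly, averaged -4.56 ± 0.28, with extracts from -7.41 to -2.79. Pou2af1, a coactivator of immunoglobulin genes, averaged -3.32 ± 0.33, and Irf4, a transcription factor of plasma cell differentiation, -2.90 ± 0.20. Xbp1, a transcription factor of the secretory pathway that epithelium also uses, lay on the Myc side at 1.70 ± 0.16. Of 11 B cell genes, 3 passed on the opposite side (Cd79b, a signalling chain of the B cell receptor, at -2.65 ± 0.26; the surface protein gene Ms4a1 at -1.39 ± 0.13; the transcription factor gene Ebf1 at -0.76 ± 0.23, which lay at 0.20 with the extract in channel 2 alone); the other 8 missed the threshold. Means of those 8 ran from -0.61 (Cd72) to 0.39 (Pax5), with Cd79a, the partner of Cd79b, at 0.02. The B cell list had a median of 0.11, beside 0.10 for all probes. The part of cell content in the member ratios was not tested.

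Other cell types showed other mixtures, to be read beside the 13.6% of all probes that passed on the opposite side and the 23.0% on the Myc side. Of 13 T and NK cell genes, 5 passed on the opposite side, with Cd3e of the T cell receptor complex at -2.17 ± 0.28 the farthest, and 2 on the Myc side (Cd4 at 1.20 ± 0.37 and Cd8b1 at 0.82 ± 0.17). Of 8 macrophage genes, 4 passed on the Myc side, with the complement gene C1qc at 2.91 ± 0.24 the farthest and its partner C1qb at -0.65 with the extract in channel 1 alone, and the scavenger receptor gene Msr1 passed on the opposite side at -1.12 ± 0.15. The macrophage gene Lyz2 missed the threshold at 0.31 ± 0.12, while its other probe lay at 3.27. Medians were 0.15 for the T and NK cell list and 0.54 for the macrophage list, beside 0.10 for all probes.

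Of 9 immunoglobulin receptor and transport genes, the Fc receptor gene Fcgr3 passed on the Myc side at 2.20 ± 0.25, as did Trim21 and Fcgr1, which lay on the opposite side with the extract in channel 1 alone (-1.02 and -0.65), and Fcgrt, which encodes the neonatal Fc receptor, passed on the opposite side at -1.22 ± 0.33. Pigr, the receptor that carries IgA and IgM across epithelium, did not pass against the reference (0.24 ± 0.43, extracts from -2.71 to 3.54) and differed between extracts (moderated F adjusted p = 0.0424). The inhibitory receptor gene Fcgr2b likewise differed between extracts (adjusted p = 0.00492 by the same F test), at -0.04 ± 0.21 on average. Of 15 folding and secretion genes, 5 passed on the Myc side and 2 (Mzb1 and Edem1) on the opposite side. Over all probes, 23.0% and 13.6% passed on these sides. The prolyl isomerase gene Fkbp11, at 2.41 ± 0.14, was the farthest of the 5. Of 9 recombination and class switching genes, 4 passed on the Myc side, none beyond 0.58 (Ung, a uracil glycosylase of class switching), and 2 on the opposite side (the end-joining gene Xrcc4 at -0.94 ± 0.19 and the mismatch repair gene Msh6 at -0.65 ± 0.17). Of 10 surrogate light chain and B cell receptor signalling genes, Igll1 passed on the Myc side at 0.39 ± 0.13, while its other probe lay at -0.54, and Cd79b on the opposite side; the other 8 missed the threshold.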

How the data were processed

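Total RNA of 15 extracts was measured on 30 arrays with 2 channels each. The deposited values are log2 ratios of the 2 channels made by the authors, a scale read from the values; the sources used here do not give background correction, normalization, filters, scanner or numerator. The value 16.61 (log2 of 100000) was taken as missing. Arrays with the extract in channel 2 were turned in sign, and the 2 arrays of an extract were averaged to 1 value. Symbols came from the platform annotation (16874 of 22800 probes with 1 symbol, 134 with several, 5792 unlisted), and all 125 members matched RefSeq genes of GRCm38.p6 by gene identifier. No coordinates or sequences are printed.

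Extract means were tested against 0, between number 579 and the other numbers, and between progression extracts and the rest with limma 3.58.1 (lmFit, eBayes) in R 4.3.3, on every probe with at least 20 measured arrays, adjusted by Benjamini-Hochberg over all of them. The reference is 1 RNA, and its own spread does not enter. The comparison between extracts used single arrays with a dye term and a nested-model F with limma's variance moderation, which handles missing values, so its error is array noise. The number of arrays limits the precision. In simulated data with 6000 probes, the test against the reference recovered 100 of 100 probes at a log2 change of 2 and made 6 false calls, and the test between extracts recovered 80 of 100. The test of number 579 recovered 79 of 100 and made 11 false calls. Simulated noise was independent for every array, and its only channel effect was a random shift drawn for each probe. These figures may therefore not carry over to the members. The members, lists and named probes were chosen with earlier results of these data known. The 4 members farthest from 0 among those that passed on each side, and up to 4 that differed between extracts, were described in full. Only 1 met the second condition, and the 3 probes most correlated with it were given. List genes were named if they passed a test, and some that missed it were given beside them. A gene of a list was read from its probe on the most arrays. Alternatives were array medians subtracted, each orientation alone, stricter and looser filters, thin extracts left out, numbers averaged or as a random block, the series of array titles as a block, no dye term, and each extract left out.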

Additional observations from a re-analysis of the deposited data

Results flagged for a closer look

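Of 18 sets of extract values checked for a sample far from the others, 1 held one, and chance alone would mark about 1 set in 20. Among the 10 extracts of numbers other than 579, Igkv6-14 probe 7889 stood at -2.915 in extract 546-B, while the nearest of the other extracts stood at -6.20, a gap of 0.661 of the whole range. The arrays of 546-B gave -0.85 with the extract in channel 1 and -4.98 in channel 2. Without 546-B the mean of the probe was -7.01, against -6.73 with it. The cause was not tested.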

How the results depend on the processing

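Among members, most of the 31 calls on the opposite side held under each setting that tested all 31. After array medians were subtracted 31 remained, with the extract in channel 1 only 29 (1 turned sides) and in channel 2 only 27 (3 turned). The fewest, 26, remained with numbers averaged first. Counts on the Myc side moved more. They were 10 as reported, 4 after array medians were subtracted, 5 in channel 1 only, 44 in channel 2 only, 4 with at least 24 arrays and every extract, and 5 with numbers averaged first. The count on the opposite side was 62 in channel 1 only and 14 under the stricter filter, which tests fewer members. Over all probes the Myc side had 7946 calls in channel 2 only and the opposite side 6379 in channel 1 only. Between extracts, 0 members and 229 of all probes passed with no dye term, against 1 and 513; the stricter filter gave 801 of all probes, and leaving out both 546-A and 548-A gave 298. Leaving out each extract in turn gave 5 to 10 members on the Myc side, 28 to 31 on the opposite side, 4001 to 4597 and 2379 to 2757 of all probes on these sides, 1 member in every case and 343 to 628 of all probes between extracts. The lowest Myc side count came without 546-B, and counts of 6 came without 567-B and without 579-B. For number 579 and for the progression extracts the member count was 0 under every setting run. Members turned sides between orientations: 23 members that did not pass as reported passed on the opposite side in channel 1 only and on the Myc side in channel 2 only. The matching count over all probes was not made. Among the members and list genes followed through the settings, a mean on the other side than reported, where either passed, occurred with the extract in channel 1 only for Ighv6-6 probe 1166 (0.21), Ighv6-6 probe 19366 (-0.10), Ighv5-9 probe 12515 (-0.48), Ighv5-9 probe 21514 (-0.44), Igkv4-55 probe 15468 (-0.022), Trim21 (-1.02), Fcgr1 (-0.65) and C1qb (-0.65). With it in channel 2 only it occurred for Ighv5-9 probe 90 (0.23), Ighv5-9 probe 14715 (0.38), Ighv6-6 probe 13565 (0.14), Igkv2-112 probe 2216 (-0.063), Ighm probe 13515 (1.00) and Ebf1 (0.20). The cause was not tested. No paired analysis was possible for number 579 or the progression extracts, because no extract number stood in both groups compared. With the extract number as a random block the Myc side had 9 members and the opposite side 31. With the series of array titles as a block, 0 members passed for number 579 and for the progression extracts. Signal over background is not given, so the limit it sets on dim probes is unknown.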

Other observations

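Immunoglobulin probes outside the members were read as values only. The 77 single-symbol probes measured on fewer than 20 arrays had means from -4.77 to 0.96 with a median of -0.18, and 2 of them lay below -2: Igkv4-72 probe 2241 at -4.77 and Igkv4-62 probe 17040 at -4.01, both with 19 arrays. On either side of the minimum, the 6 probes with 20 arrays had means from -2.91 to 0.14 (median -0.31) and the 10 probes with 19 arrays had means from -4.77 to 0.63 (median -0.11). Another 84 probes carried several symbols with an immunoglobulin among them and stay unnamed. Of these, 56 were measured on at least 20 arrays, with means from -5.70 to 2.17 and a median of -0.26; 7 lay below -2 and 1 above 1.

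Missing cells were not spread evenly over the channels in the 18 members below -2. Of 270 cells per channel, 22 were blank with the extract in channel 1 and 58 with it in channel 2, and the placeholder stood in 1 and 6. In the other 107 members, with 1605 cells per channel, 236 and 293 were blank and 27 and 34 held the placeholder.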
